A study of Homo sapiens with 24 samples.

Results

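GRAMD1A, GRAMD1B and GRAMD1C encode carriers of cholesterol, and ABCA1, ABCG1, MYLIP and APOE are targets of the liver X receptors, which are encoded by NR1H2 and NR1H3. These 9 genes were read by 10 probes, out of 34127 different probes for 24655 named genes on the arrays. ABCA1 had 2 probes and each of the other genes had 1. The probes were taken by the gene name in the array files. GRAMD1B was chosen by its measured difference between Pirfenidone and PBS in H1975 cells at 6 h in these same arrays, so its values in every comparison that holds those arrays are a description and carry no test.

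The samples were A549 and H1975, a pair of established human lung adenocarcinoma cell lines, grown in culture and treated with 0.75 mg/ml Pirfenidone, an antifibrotic drug, or with an equivalent volume of the solvent PBS. This dose is that of the labels, and a legend of the study names a higher dose beside transcriptome data of A549 cells. The incubation lasted 6 h or 24 h, which gave 8 groups of 3 samples, with no genetic modification given in the labels. RNA of the 24 samples was labeled with a single dye and read on 24 Agilent arrays. The design asks how the drug changed the transcriptome of each line, and each line stands for a single tumor. All 5 epithelial markers examined (CDH1, EPCAM, KRT8, KRT18 and KRT19) were detected well above background on each of the 12 arrays per line. Of the markers of other cell types, 3 of 4 for leukocytes and macrophages exceeded background clearly on each of the 12 arrays in either line, 1 of 3 endothelial and 2 of 5 fibroblast markers on all 12 A549 arrays, and 3 of 3 and 3 of 5 on all 12 H1975 arrays. Their part in the results was not tested. The correlation between arrays of a group lay between 0.9822 and 0.9963. It was taken over probes well above background throughout at least 1 group that had a value on every array. Each array carries 1 of 4 dates, whose meaning the labels and the methods do not state, and each Pirfenidone array has a PBS array of the same line, time and date.

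GRAMD1 proteins, also called Aster proteins, sit in the membrane of the endoplasmic reticulum and reach across to the plasma membrane when the latter holds accessible cholesterol. They bind acidic lipids with a GRAM domain and carry cholesterol inward with a START-like domain. Liver X receptors are nuclear receptors that bind oxysterols and, together with retinoid X receptors, switch on genes that remove cholesterol from the cell. ABCA1 and ABCG1 export cholesterol to apolipoprotein A1 and to HDL, MYLIP is a ubiquitin ligase that limits lipoprotein uptake and APOE carries lipid out of the cell. GRAMD1B is itself known to be induced by these receptors in some cell types.

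The values of GRAMD1A and GRAMD1B rest on the following 60-base probes, shown because GRAMD1B carries the main treatment result and GRAMD1A is its paralog. Coordinates are hg19 as given in the array files. The GRAMD1A probe covers chr19:35512470-35512614, a span of 145 bases, so its 60 bases are split by an intron. The GRAMD1B probe covers chr11:123489842-123489901 without a gap. The sequences are those of the array files.
GRAMD1A: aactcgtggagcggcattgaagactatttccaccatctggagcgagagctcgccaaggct
GRAMD1B: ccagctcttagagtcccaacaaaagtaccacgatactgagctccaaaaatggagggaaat
Both probes hold a reading frame without a stop codon, over 20 codons in GRAMD1A and 19 in GRAMD1B. The GC content was 55.0% for the GRAMD1A probe and 45.0% for the GRAMD1B probe.

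The promoter of ABCA1 is shown because it is the best known place of liver X receptor action among these genes. RefSeq promoters of assembly GRCh38.p14 matched 7 of the 9 genes by symbol, and the 250 bases before the ABCA1 start, chr9:104928156-104928405 on the minus strand, read as follows, with a pair of spaced half-sites in capitals.
ABCA1: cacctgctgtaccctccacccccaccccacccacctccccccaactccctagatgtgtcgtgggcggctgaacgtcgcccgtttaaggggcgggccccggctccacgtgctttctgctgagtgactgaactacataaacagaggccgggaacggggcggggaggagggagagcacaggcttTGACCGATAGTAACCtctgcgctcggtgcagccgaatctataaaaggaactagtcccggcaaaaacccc
The letters searched were GGTNANNNNNGGTCA, on both strands, and were set so as to include the element that is known in ABCA1. The match in capitals lies on the opposite strand of the gene and starts 69 bases before its start. Among 35116 promoter windows of 250 bases, 0.216% held these letters, and ABCA1 was the only match among the windows of these genes. The single half-site AGGTCA, found in 12.1% of all windows, was present in a window of GRAMD1A and in a window of NR1H3. A match is a description of letters and does not show binding.

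GRAMD1B showed the largest treatment difference of the 9 genes, in H1975 cells at both times. All levels are log2 signals after subtraction of the array's 75th percentile, so a value of 0 is a signal at that percentile. In H1975 cells at 6 h the PBS samples read -3.94, -2.29 and -2.37 and the Pirfenidone samples read -0.08, -0.19 and 0.23. All 3 Pirfenidone samples were above all 3 PBS samples, and the spread among the PBS samples was wider than among the treated ones. The mean difference was 2.86 on the log2 scale, or 7.24-fold. This is the value that chose the gene. Among the 23827 probes tested it took rank 3 from the highest, after both probes of CHAC1 with log2 differences of 3.30 and 3.20, and just ahead of RNF17 with 2.74 and KCTD16 with 2.68. Within the 3 dates the 6 h difference was 4.17, 2.22 and 2.18. The largest of these came from the date whose PBS sample was the lowest, and without that PBS sample, H1975 PBS 6 h replicate 1, the mean difference was 2.32.

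**Figure D1:**
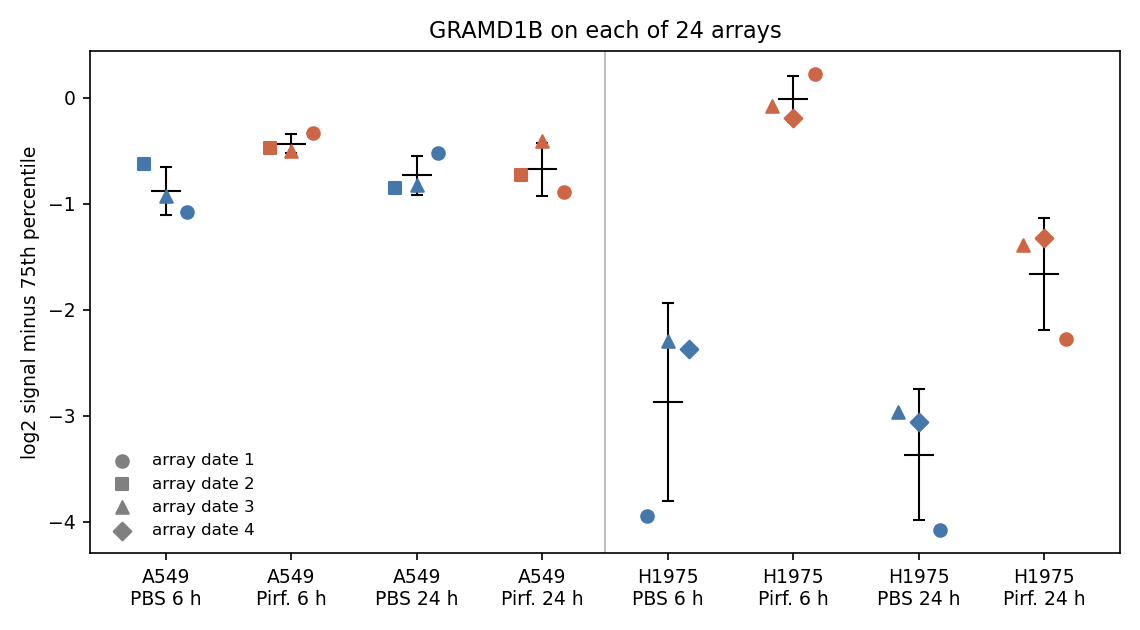
Level of GRAMD1B (vertical axis, log2 signal minus the 75th percentile of the array) on each of the 24 arrays by group (horizontal axis). Blue symbols are PBS, orange symbols are Pirfenidone, the symbol shape gives the date of the array, and the bars are the mean and SD of 3 samples. In H1975 cells the Pirfenidone samples lie above the PBS samples at both times, while the A549 samples stay between -1.07 and -0.33.

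At 24 h, in samples that did not choose the gene, GRAMD1B rose in H1975 cells. The PBS samples read -2.96, -3.06 and -4.08 and the Pirfenidone samples read -1.39, -1.33 and -2.27. The groups did not overlap, and within each group the sample of date 1 was the lowest. The mean level went from -3.37 ± 0.62 (SD, n = 3) to -1.66 ± 0.53 (SD, n = 3), a log2 difference of 1.70 with a standard error of 0.36, or 3.26-fold, with a Benjamini-Hochberg adjusted p of 0.0113 in limma. Within dates the difference was 1.57, 1.73 and 1.81. The standard error was pooled over all 24 arrays, including those that chose the gene. The call was lost in a fit of only the 6 arrays compared (adjusted p = 0.0757) and without H1975 PBS 24 h replicate 3 (log2 difference 1.35, adjusted p = 0.0574).

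In A549 cells GRAMD1B did not pass at either time. At 6 h the PBS samples read -0.63, -0.93 and -1.07 and the Pirfenidone samples read -0.47, -0.50 and -0.33, so the groups did not overlap, but the log2 difference was 0.44 with an adjusted p of 1. At 24 h the PBS samples read -0.85, -0.83 and -0.52 and the Pirfenidone samples read -0.73, -0.41 and -0.89, which overlap. The 95% confidence interval of the 24 h difference ran from -0.70 to 0.81 on the log2 scale. The response at 24 h was larger in H1975 than in A549 cells by 1.65 on the log2 scale (95% confidence interval 0.58 to 2.71), but this difference between lines did not pass after adjustment over all probes (adjusted p = 0.181). With the date of the array as a block its adjusted p was 0.0367. At 6 h the same difference was 2.41, as a description.

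Ordered by mean level, H1975 cells on Pirfenidone at 6 h held the highest GRAMD1B level of the 8 groups, at -0.01 ± 0.22 (SD, n = 3), and did not overlap with the next group, A549 cells on Pirfenidone at 6 h, at -0.43 ± 0.09 (SD, n = 3). The 4 A549 groups followed, each overlapping with the next A549 group. H1975 cells on Pirfenidone at 24 h followed below all A549 groups, and both H1975 PBS groups, which overlapped with each other, were the lowest. Under PBS, H1975 cells thus held less GRAMD1B signal than A549 cells. At 24 h this difference was -2.63 on the log2 scale with a standard error of 0.36 and an adjusted p of 3.7e-06, which is 6.21-fold lower in H1975 cells. Fewer RNA copies per cell and fewer cells with the RNA cannot be told apart in such bulk samples.

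The probes of other genes whose levels followed GRAMD1B most closely are given as a description of the arrays, which share lines, times and drug. Over all 24 arrays the highest Pearson correlations with GRAMD1B were those of NR4A3 (r = 0.8629), an orphan nuclear receptor, ZC3H10 (r = 0.8619), CNEP1R1 (r = 0.8576), PITPNC1 (r = 0.8506), a phosphatidylinositol transfer protein, and JAG1 (r = 0.8392), a Notch ligand. Over the 12 H1975 arrays they were FAM87A (r = 0.9894), SESN1 (r = 0.9623), a p53-induced stress gene, RNF214 (r = 0.9559), FICD (r = 0.9513), an AMPylase of the endoplasmic reticulum, and RNF144B (r = 0.9493). None of the other 8 genes studied here was among them. FAM87A differed between Pirfenidone and PBS by 2.38 at 6 h and 1.24 at 24 h in H1975 cells on the log2 scale.

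The paralogs GRAMD1A and GRAMD1C did not pass in any treatment comparison. In H1975 cells at 6 h the PBS samples of GRAMD1A read -3.16, -3.53 and -4.04 and the Pirfenidone samples read -2.84, -3.63 and -2.92. These groups overlap, with a log2 difference of 0.45 (95% confidence interval -0.01 to 0.90, adjusted p = 0.473). At 24 h the GRAMD1A difference was 0.30 (adjusted p = 0.48), and it lay between 0.26 and 0.37 within the 3 dates. For GRAMD1C in H1975 cells the PBS samples at 24 h read -2.59, -2.68 and -2.66 and the Pirfenidone samples read -2.40, -2.32 and -2.26. The groups were apart, but the log2 difference was 0.32 (adjusted p = 0.602). In A549 cells the differences of both paralogs lay between -0.11 and 0.09 at the 2 times.

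The 3 GRAMD1 genes differed between the lines under PBS in opposite directions. GRAMD1A was lower in H1975 cells by 2.44 at 6 h (adjusted p = 1.3e-08) and by 2.36 at 24 h (adjusted p = 2.1e-08) on the log2 scale, or 5.42-fold and 5.12-fold. Its level over the 12 arrays of a line ran from -1.23 to -0.76 in A549 cells and from -4.04 to -2.71 in H1975 cells. GRAMD1C was higher in H1975 cells by 1.96 at both times (adjusted p = 1.2e-05 at either time), or 3.88-fold and 3.90-fold. It ran from -5.55 to -3.74 in A549 cells and from -3.37 to -2.26 in H1975 cells. The lines did not overlap in either paralog, whether treated or not, and the share of all probes with such separation was not counted.

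**Figure D2:**
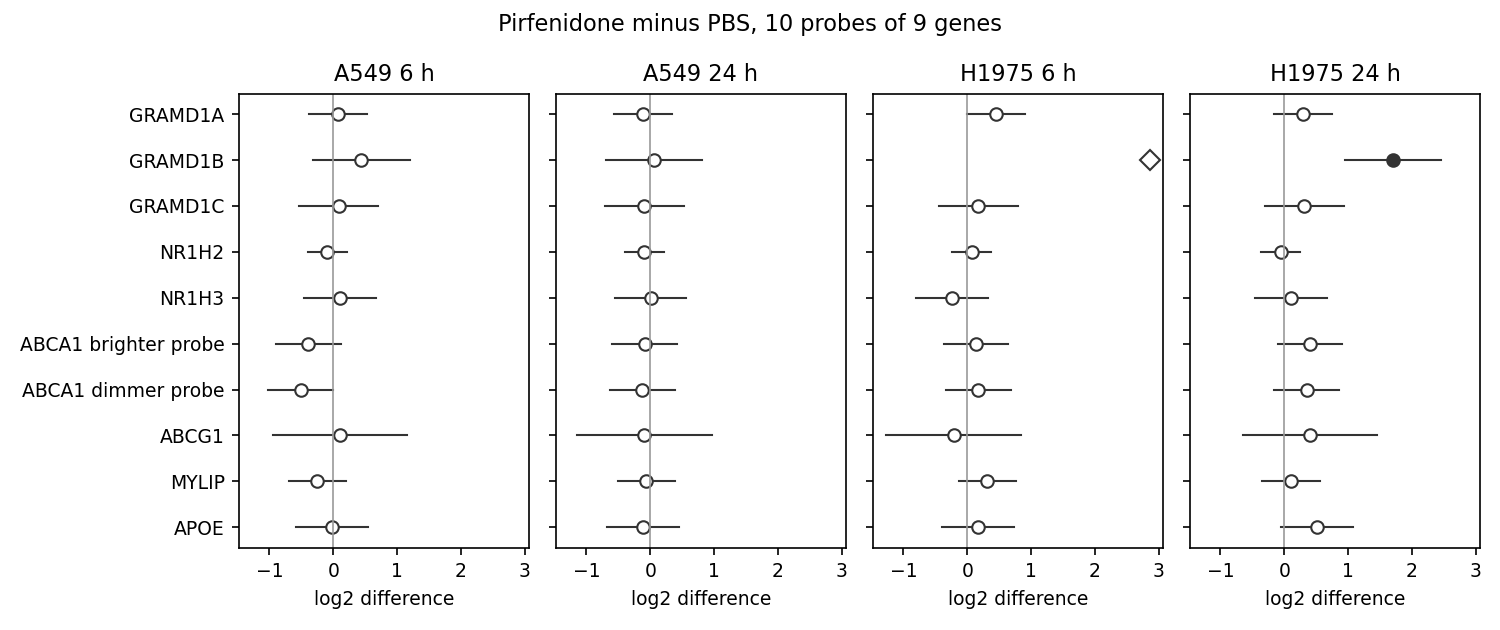
Difference between Pirfenidone and PBS (horizontal axis, log2) for the 10 probes (vertical axis) in the 4 treatment comparisons. Circles with bars are estimates with 95% confidence intervals from limma, a filled circle passed, and the open diamond without a bar is the GRAMD1B value that chose the gene. GRAMD1B at 24 h in H1975 cells, at 1.70, is the single filled circle.

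The liver X receptors were measured on all 24 arrays and neither passed in any comparison. NR1H2, which encodes the broadly expressed LXR beta, stayed within -0.78 to -0.11 over all arrays, and its 4 treatment differences lay between -0.10 and 0.07 on the log2 scale. Its confidence interval was the narrowest of the 10 probes, at -0.36 to 0.25 in H1975 cells at 24 h. NR1H3, which encodes LXR alpha, read 0.88, 0.63 and 0.61 in H1975 PBS samples at 6 h and -0.51, 0.91 and 1.01 in the Pirfenidone samples. The first of these Pirfenidone samples stood apart from the others, and the mean difference was -0.24 (adjusted p = 0.876). Within the dates it was -1.15, 0.13 and 0.30. In A549 cells the NR1H3 differences were 0.10 at 6 h and 0.01 at 24 h. Between the lines under PBS both receptors were lower in H1975 cells without overlap at either time, NR1H2 by 0.31 and 0.26 and NR1H3 by 0.48 and 0.44 on the log2 scale, with adjusted p-values between 0.0777 and 0.162. Such separation was not particular to the receptors, as 9 of the 10 probes studied here did not overlap between the lines at either time. Of the 23827 probes tested, 14922 at 6 h and 14971 at 24 h had an unadjusted limma p under 0.05 between the lines. The share of all probes without overlap between the lines was not counted.

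ABCA1, the exporter of cholesterol to apolipoprotein A1, was read by a brighter probe at chr9:107543704-107543763 and a dimmer probe at chr9:107624012-107624071, and neither passed in any treatment comparison. In A549 cells at 6 h the brighter probe read -2.34, -2.44 and -2.63 under PBS and -2.67, -2.78 and -3.14 under Pirfenidone. The treated samples were all lower, with a log2 difference of -0.39 (adjusted p = 1). The dimmer probe had the same sign, with a difference of -0.51 (adjusted p = 0.826), also without overlap. In H1975 cells the signs were positive: the brighter probe differed by 0.14 at 6 h and by 0.40 at 24 h (adjusted p = 0.355), and the dimmer probe by 0.17 at 6 h and by 0.35 at 24 h (adjusted p = 0.441). At 24 h the PBS samples of the brighter probe read -0.60, -0.48 and -1.06 and the Pirfenidone samples -0.32, -0.11 and -0.49, which overlap, while the difference was positive within all 3 dates (0.28 to 0.56). The test of the difference between lines at 6 h gave 0.53 for the brighter and 0.69 for the dimmer probe, each with an adjusted p of 1.

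ABCA1 was higher in H1975 than in A549 cells under PBS. The brighter probe differed by 1.68 at 6 h (3.20-fold, adjusted p = 7.2e-06) and by 1.86 at 24 h (3.62-fold, adjusted p = 2.0e-06). The dimmer probe passed at 24 h with 1.97 (3.91-fold, adjusted p = 1.0e-06). At 6 h it differed by 0.90 (adjusted p = 0.00351), which is under the limit of 1, and without H1975 PBS 6 h replicate 1 it differed by 1.03 and passed. In A549 cells the dimmer probe read -5.23, -5.32 and -5.51 at 6 h and -5.93, -6.65 and -6.79 at 24 h under PBS, a log2 difference of -1.10 that did not pass (adjusted p = 0.097). Without A549 PBS 24 h replicate 1 this difference was -1.36 and passed (adjusted p = 0.0289). The brighter probe differed by -0.10 over the same interval, so the 2 probes of ABCA1 disagree there. Of the dimmer probe's 12 A549 arrays, 2 were not well above background, both at 24 h.

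ABCG1, which exports cholesterol to HDL, was well above background on all 12 A549 arrays and on 1 of the 12 H1975 arrays. In A549 cells its level ran from -4.89 to -3.25. In H1975 cells its level is a bound, also under PBS at 24 h, where 1 of 3 arrays measured it. Only its A549 groups brought ABCG1 among the probes tested, so its p-values between lines set A549 signal against H1975 signal near background. Under PBS, ABCG1 was at least 9.17-fold higher in A549 than in H1975 cells at 6 h (adjusted p = 2.4e-06 of the fitted difference) and at least 8.12-fold higher at 24 h (adjusted p = 4.7e-07). With normexp background correction the fitted difference was -1.82 at 6 h (adjusted p = 0.0158) and -1.93 at 24 h (adjusted p = 0.011) on the log2 scale, which is under these bounds, so the size depends on the background correction. The bound sets the A549 mean against the lowest signal well above background on each H1975 array or the probe's own signal, whichever was higher. Under Pirfenidone the bounds were 9.37-fold and 8.85-fold. In A549 cells the treatment differences were 0.10 at 6 h and -0.09 at 24 h, with 95% confidence intervals from -0.95 to 1.16 and from -1.15 to 0.95. No change with treatment can be read in H1975 cells at this signal.

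**Figure D3:**
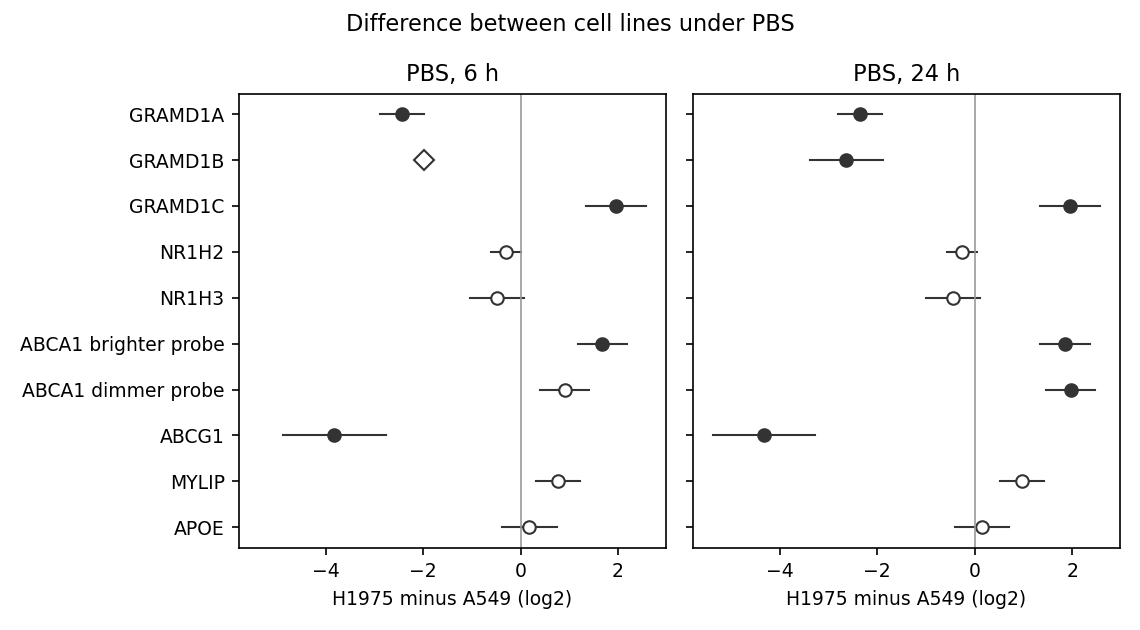
Difference between H1975 and A549 cells under PBS (horizontal axis, log2, H1975 minus A549) at 6 h and 24 h for the 10 probes (vertical axis). Circles with bars are limma estimates with 95% confidence intervals, filled circles passed, and the open diamond is GRAMD1B at 6 h, given without a test. GRAMD1A, GRAMD1B and ABCG1 lie below 0 and GRAMD1C and ABCA1 above it at both times.

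MYLIP, the ubiquitin ligase induced by liver X receptors, did not pass in any comparison. In H1975 cells at 6 h the PBS samples read -1.29, -0.90 and -0.92 and the Pirfenidone samples read -0.62, -0.70 and -0.85. The treated samples were all higher, with a log2 difference of 0.31 (adjusted p = 0.696). In A549 cells at 6 h the difference was -0.25 (adjusted p = 1), and it was negative within all 3 dates. The difference between the lines in this response was 0.56 (adjusted p = 1). Under PBS, MYLIP was higher in H1975 cells by 0.77 at 6 h (adjusted p = 0.00454) and by 0.98 at 24 h (adjusted p = 0.000633), both under the limit of 1. Without A549 PBS 24 h replicate 3, which read -0.85 against -1.55 and -1.84 for the others, the 24 h difference was 1.26 and passed, as it did with 1.03 without H1975 PBS 24 h replicate 1.

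APOE, a lipid carrier that macrophages and hepatocytes secrete, was high in both lines, between 1.35 and 2.74 on the 24 arrays. In H1975 cells at 24 h the PBS samples read 2.03, 2.32 and 1.84 and the Pirfenidone samples read 2.64, 2.74 and 2.35. The groups did not overlap, and the log2 difference was 0.51 (95% confidence interval -0.05 to 1.07, adjusted p = 0.279). Within dates it lay between 0.42 and 0.61. At 6 h in H1975 cells it was 0.17, and in A549 cells -0.02 and -0.11. APOE did not pass between the lines, with differences of 0.18 at 6 h and 0.15 at 24 h.

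**Figure D4:**
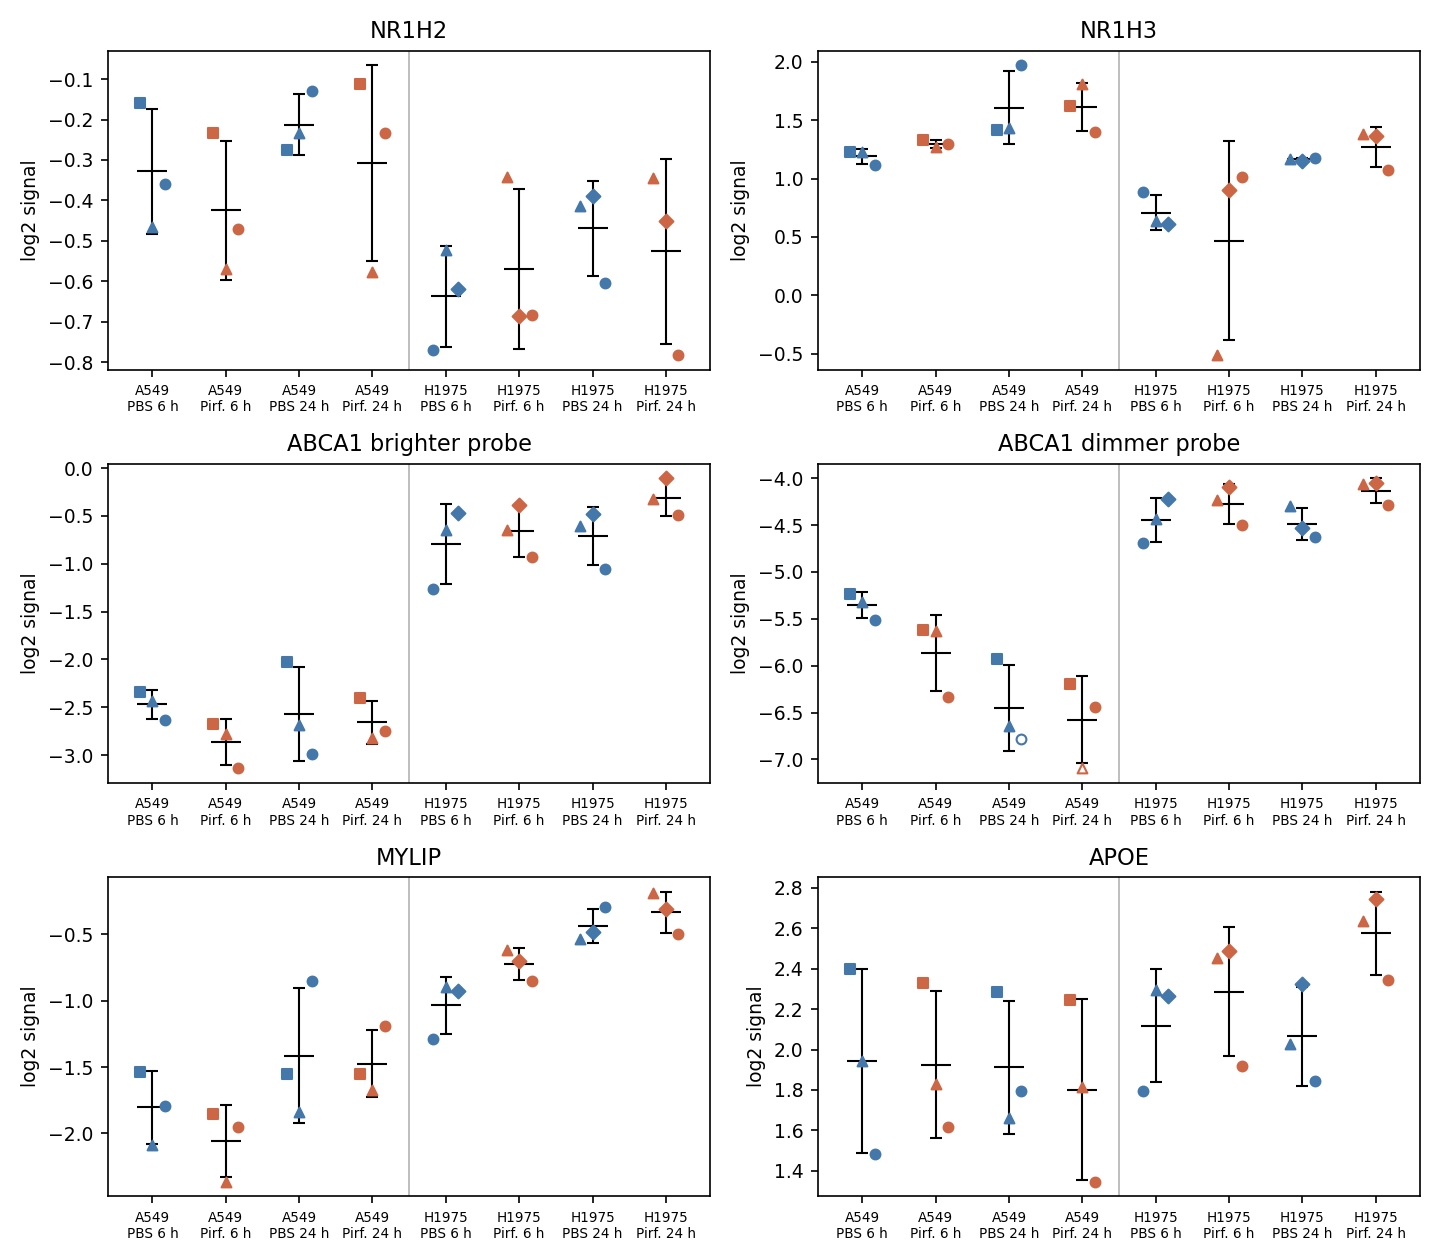
Levels of NR1H2, NR1H3, both ABCA1 probes, MYLIP and APOE (vertical axes, log2 signal minus the 75th percentile of the array, with a separate scale in each panel) on the 24 arrays by group (horizontal axes). Colors, shapes and bars are as in the plot of GRAMD1B by array, and open symbols were not well above background. A single H1975 Pirfenidone sample at 6 h, at -0.51, lies apart in NR1H3.

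Counted over the 10 probes, 1 passed in the 4 treatment comparisons, in which a probe passed at an adjusted p up to 0.05 with a log2 difference of at least 1. In A549 cells 0 of 10 passed at 6 h, where 0.176% of all probes tested passed, and 0 of 10 passed at 24 h, where 0.0126% did. In H1975 cells at 6 h 0 of the 9 probes given a test passed, beside 0.491% of all probes. At 24 h in H1975 cells 1 of 10 passed, GRAMD1B, beside 1.89% of all probes. With ABCG1 left out, since it was near background in H1975 cells, the median log2 difference of the other 9 probes at 24 h in H1975 cells was 0.32, beside 0.02 over all probes tested, and 8 of the 9 signs were positive, beside 52.9% of all probes. The 9 probes include both of ABCA1 and that of GRAMD1B, chosen in H1975 cells at 6 h, and share the same arrays. In A549 cells at 24 h the median of these 9 probes was -0.09, beside -0.02 over all probes.

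In H1975 cells at 24 h the Pirfenidone and PBS samples did not overlap for 4 of the 10 probes, those of GRAMD1B, APOE and GRAMD1C and the dimmer ABCA1 probe, beside 31.9% of all probes. At 6 h they did not overlap for MYLIP and for GRAMD1B, which was chosen there, beside 17.8% of all probes. In A549 cells they did not overlap at 6 h for 4 of the 10 probes, those of GRAMD1B and NR1H3 and both of ABCA1, beside 15.3% of all probes, and at 24 h for 0 of 10, beside 1.82%.

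For the difference in response between lines, 0 of 9 passed at 6 h, beside 0.0336% of all probes, and 0 of 10 at 24 h, beside 0.193%. At 24 h all 9 signs without ABCG1 were positive, beside 56.5% of all probes, with a median of 0.41 beside 0.06 over all probes. These signs are not separate counts. They hold both ABCA1 probes and GRAMD1B, chosen for its rise in H1975 cells at 6 h, and share the same arrays. The sign count depends on single samples. With 1 sample left out the lowest difference was -0.03 for GRAMD1C, -0.12 for MYLIP, -0.10 for NR1H2 and -0.08 for NR1H3, and it stayed positive for the other probes. Among 11 other liver X receptor targets, given below, 4 signs were positive in this 24 h comparison. In limma without adjustment, 626 probes at 6 h and 2904 at 24 h had a p of 0.05 or less in these comparisons. Between the lines under PBS 4 of 9 probes passed at 6 h, beside 32.4% of all probes, and 6 of 10 at 24 h, beside 32.9%, with 3 higher and 3 lower in H1975 cells. Both counts hold ABCG1, which only its A549 groups brought among the probes tested. Between 24 h and 6 h under PBS 0 of 10 passed in A549 cells, beside 0.109% of all probes, and 0 of 9 in H1975 cells, beside 0.315%.

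The other genes of sterol handling were counted from 6 lists, with the brightest probe for each gene. Beside these counts, 0.176% and 0.0126% of all probes passed with treatment in A549 cells at 6 h and 24 h. In H1975 cells 0.491% and 1.89% did, so a count of 0 in a list is near these shares. Of 11 other liver X receptor targets tested, out of 18 listed, none passed in any of the 4 treatment comparisons. In H1975 cells the largest differences among them were SMPDL3A, a phosphodiesterase, with 0.57 at 6 h (adjusted p = 0.373), SREBF1, the activator of fatty acid synthesis, with 0.46 at 6 h (adjusted p = 0.18), MLXIPL, a transcription factor that responds to carbohydrate, with 0.52 at 24 h (adjusted p = 0.583), and PLTP, the phospholipid transfer protein, with 0.57 at 24 h (adjusted p = 0.0654). The medians of this list were 0.12 at 6 h and -0.13 at 24 h in H1975 cells, beside 0.05 and 0.02 over all probes tested. Of the 7 receptor partners and coregulators none passed. RXRB, a retinoid X receptor, showed the largest difference at 6 h in H1975 cells, with 0.36 (adjusted p = 0.252).

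Of 23 other lipid carriers at contact sites of the endoplasmic reticulum and of lysosomal sterol export none passed with treatment. STARD5, a START-domain carrier of sterols and bile acids, differed by 0.80 in H1975 cells at 6 h (adjusted p = 0.00317), and GRAMD4 by 0.60 at 24 h (adjusted p = 0.00794), both under the limit of 1. Of the 17 genes of cholesterol synthesis and uptake under SREBP2 none passed, with medians of 0.03 at 6 h and -0.05 at 24 h in H1975 cells and of 0.20 at 6 h in A549 cells. INSIG2, which retains SREBP in the endoplasmic reticulum, differed by 0.50 and 0.46 in H1975 cells at 6 h and 24 h (adjusted p = 0.206 and 0.118). Of the 3 genes listed for lipoprotein receptors downstream of MYLIP none passed.

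Of 9 genes of oxysterol formation and sterol esterification tested, 1 passed in a treatment comparison. In that comparison, of H1975 cells at 6 h, 0.491% of all probes passed. CH25H, which makes 25-hydroxycholesterol, a ligand of liver X receptors, read -6.21, -7.04 and -7.67 under PBS and -5.91, -6.19 and -5.22 under Pirfenidone in H1975 cells at 6 h. The treated samples were all higher, by 1.20 on the log2 scale (adjusted p = 0.0401). One of the PBS samples was not well above background, and the call was lost in 5 of 11 other settings and without any 1 of 4 of the 6 samples, with log2 differences between 0.85 and 1.59 when a sample was left out. CH25H was at background on all 12 A549 arrays, so only its H1975 groups brought it among the probes tested. At 24 h no gene of this list passed. SOAT2, an acyltransferase that esterifies cholesterol, differed by -0.76 (adjusted p = 0.0743) in H1975 cells.

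**Figure D5:**
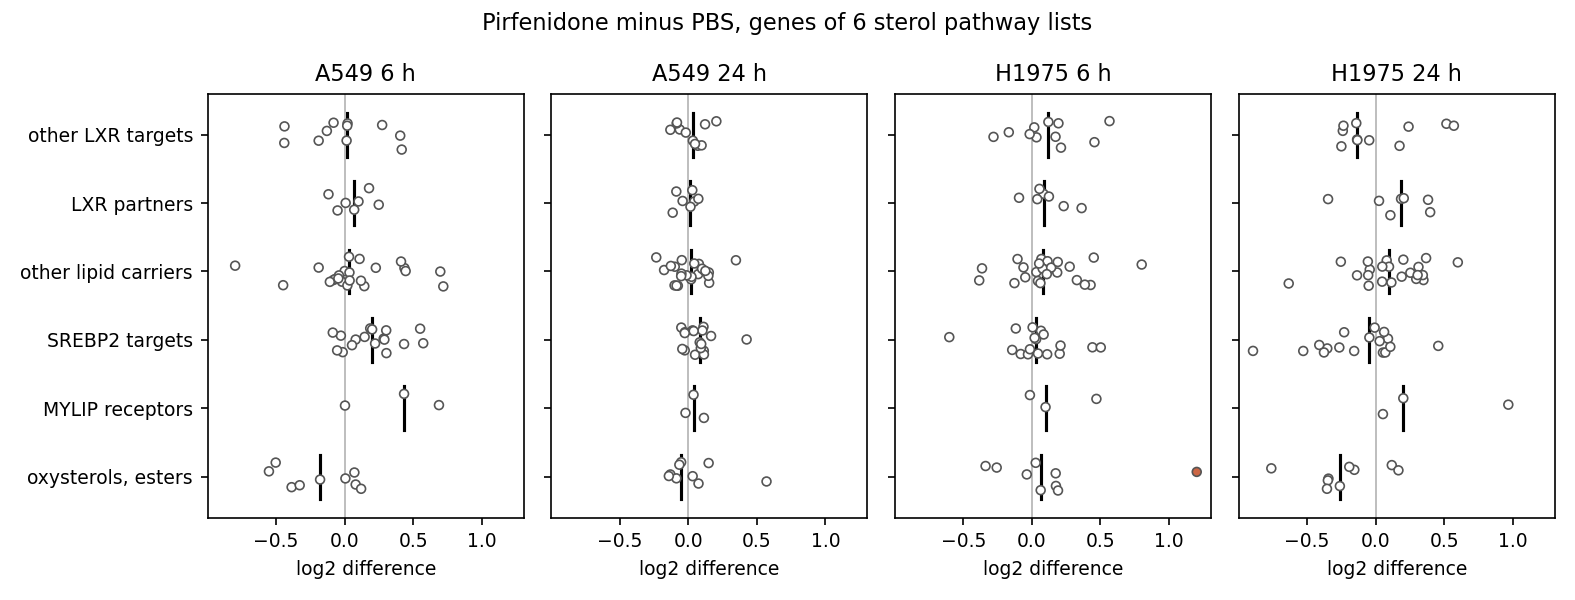
Difference between Pirfenidone and PBS (horizontal axis, log2) for each tested gene of 6 lists of sterol handling (vertical axis) in the 4 treatment comparisons. Each circle is 1 gene at its brightest probe, the black bar is the median of the list, and a filled circle passed. CH25H in H1975 cells at 6 h, at 1.20, is the single filled circle.

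Under PBS more genes of these lists passed between the lines than with treatment, beside the 32.9% of all probes that passed at 24 h. At 24 h 4 of the 11 other liver X receptor targets passed, 1 higher and 3 lower in H1975 cells. PLTP was higher by 6.19 (adjusted p = 5.0e-16), and APOC1, an apolipoprotein, and SREBF1 were lower by 1.68 (adjusted p = 1.1e-05) and 1.52 (adjusted p = 5.2e-08) on the log2 scale. The other SREBF1 probe differed by -0.02, so the probes of SREBF1 disagree. Of the lipid carriers 6 of 23 passed, all higher in H1975 cells, among them GRAMD3 with 4.75 (adjusted p = 1.3e-08). In the SREBP2 list 3 of 17 passed, among the receptor partners and coregulators 1 of 7, and among the receptors downstream of MYLIP 2 of 3. Of the oxysterol and ester genes 5 of 9 passed, with 4 higher, among them CYP27A1, the sterol 27-hydroxylase, with 6.02 (adjusted p = 3.0e-11) and CH25H with 2.94 as a fitted value against A549 arrays at background. The count thus holds CH25H, which only its H1975 groups brought among the probes tested.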

How the data were processed

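The 9 genes and the gene lists were chosen with earlier results of these data known. Spot intensity was deposited after background subtraction in Agilent's extraction software, with no normalization between arrays. Processed log2 values were also deposited by the authors, each probe centered on its median. For each array the 75th percentile of log2 signals over 43118 spots was subtracted, outlier spots were left out and spots were averaged by probe. A single limma model (version 3.58.1, R 4.3.3) held 8 groups and 16 residual degrees of freedom, for the 23827 probes that were well above background throughout at least 1 group of 3. The family-wise adjustment of the methods cannot reach 0.05 with 3 samples against 3, so Benjamini-Hochberg adjustment over all probes was used. The fit was tested on simulated data.

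Groups and replicates follow the sample labels. The methods speak in general of independent experiments, but the labels give only replicate numbers, so the spread measured may be technical. Named genes are all 9 genes, at most 4 of each list by size, and the 5 probes most correlated with GRAMD1B. Of a gene's probes the brightest over all arrays leads. GRAMD1B and ABCG1 had no promoter entry. Levels of different probes are not compared. The values of 1 listed gene are not reported here. The array number limits the precision.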

Additional observations from a re-analysis of the deposited data

How the results depend on the processing

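Alternatives were quantile normalization, normexp background correction, the authors' processed values, either no filter or a strict filter on dim probes, blocks by replicate, slide or date, the mean of a gene's probes, the methods' t-test, no limit on the fold change, fits of only the arrays compared and leaving out samples. No call among the 10 probes changed direction. The number that passed in H1975 cells at 24 h was 1, but 0 with only the arrays compared and 0 to 1 with 1 sample left out. For the difference in response between lines at 24 h it was 0, but 1 with the date block. For 24 h against 6 h under PBS in A549 cells it was 0, but 1 with quantile normalization and with the replicate, slide or date block, and 0 to 1 with 1 sample left out, in each case the dimmer ABCA1 probe. The other counts of probes passed were within 1.5 times the main count in every setting run. The replicate block changed no other call, and the replicate numbers did not pair the samples in H1975 cells at 6 h. Correlations of deviations from group means were -0.476, 0.43 and -0.677 there for same-numbered samples, against 0.5, 0.696 and 0.824 for same-date samples. Same-date correlations were 0.457 to 0.718 in H1975 cells at 24 h. In A549 cells they were 0.584 to 0.698 at 6 h but -0.101 to 0.395 at 24 h. The main fit holds no date term, so its adjusted p-values do not use pairing by date, unlike those with the date block. The dimmer ABCA1 probe lost its call between lines at 24 h with normexp (0.80, adjusted p = 0.0541). MYLIP passed between lines at 24 h without both A549 24 h arrays of replicate 3 (1.26). Blocks were set within each line, so with a block a difference between lines is that of 1 reference block per line. The dimmer ABCA1 probe passed so at 6 h with the date block (1.22), and MYLIP at 24 h with the slide block (1.27). Those passes are no check of the main fit. Over all probes the count in H1975 cells at 24 h was 451, but 172 with normexp, 143 with only the arrays compared, 702 with the date block and 104 to 478 with 1 sample left out (104 without H1975 Pirfenidone 24 h replicate 3, 231 without PBS replicate 1 and 275 without PBS replicate 3). At 6 h in H1975 cells it was 117, but 67 with the strict filter, 226 with the date block and 4 with only the arrays compared. The counts in A549 cells were 42 at 6 h and 3 at 24 h, but 14 and 0 with normexp and 77 and 9 with the date block. The difference in response between lines gave 8 probes at 6 h and 46 at 24 h, but 67 and 397 with the date block and 0 and 3 with only the arrays compared. For 24 h against 6 h under PBS the counts were 26 in A549 and 75 in H1975 cells, but 108 and 280 with the date block and 1 and 2 with only the arrays compared. The methods' t-test, run here without moderation, paired by date and unadjusted, follows a legend on selected genes rather than the moderated test with family-wise adjustment stated for all genes, and gave 84 and 29 probes in A549 cells and 215 and 524 in H1975 cells at 6 h and 24 h, and 0 in each after Benjamini-Hochberg adjustment. CH25H was examined in the same settings after its value was seen. The cause of these changes was not tested. ABCG1 passed between the lines in all 16 alternatives at 6 h and all 17 at 24 h. Each of them rests on the same H1975 signals near background, and some hold a block, so this is not independent support. Signals near background limit ABCG1 in H1975 cells and the dimmer ABCA1 probe in A549 cells.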
